A study of Drosophila melanogaster with 32 samples.

Results

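The genes described here are 276 protein-coding genes of Drosophila melanogaster that carry only a FlyBase CG number as their symbol, that were abundant in testes rich in mature spermatocytes and that had next to no RNA in testes mutant for aly. They were chosen from the RNA-seq counts by level. CPM, the count divided by the library total and multiplied by 1000000, was averaged over the 2 libraries of a group, and a member needed at least 50 CPM on average at 72h and less than 0.5 CPM in aly. Of 17559 gene identifiers in the count tables, 17253 had a symbol and 6009 of these were CG numbers. 1375 CG genes reached 50 CPM at 72h, and the 276 members were 20.1% of them. The other 1099 had 0.5 CPM or more in aly.

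Germ cells of the fly testis divide as spermatogonia and then, when the Bam protein accumulates, stop dividing and become spermatocytes, which grow and switch on a large set of genes used in meiosis and in building sperm. aly and topi encode subunits of tMAC, the testis meiotic arrest complex, which acts at promoters in spermatocytes. In mutants of aly or topi germ cells reach the spermatocyte stage, arrest there, and fail to make many transcripts needed for meiosis and spermatid differentiation. A gene with only a CG number is one that FlyBase has annotated but that nobody has named from a mutant or a product, so for most of the members no role can be given.

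RNA-seq was made from rRNA-depleted total RNA of whole testes in 4 groups of 2 libraries. The bam group was bam -/-, whose testes are enriched for spermatogonia, grown at 22 C for 12 days with no heat shock. The 48h and 72h groups were bam -/- flies with Bam under a heat shock promoter. They were grown at 22 C for 9 days, shocked at 37 C for 30 min and kept at 25 C for 48 h or 72 h, and their labels name the stages young and mature spermatocyte. The aly group was aly -/-, grown at 25 C for 10 days without a shock, and is labelled as enriched for mature spermatocytes. The labels name neither the bam mutation nor the transgene for it, so genotype, temperature, shock and growth time differ together between aly and 72h and cannot be told apart. ATAC-seq, which marks open chromatin, came as 1 peak list for each of 6 conditions. These were bam, 48h, 72h and aly as above, topi -/- grown like aly, and ctrl48h, bam -/- flies with no transgene named, which were shocked and kept for 48 h. RNA-seq used 100 pairs of testes from flies under 2 days old per library, and ATAC-seq 10 to 20 pairs from flies under 1 day old per technical replicate.

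RNA-seq libraries held 20064489 to 28984275 counts. Libraries of the same group lay close together, with 7.12% to 7.45% of genes differing between them at an unadjusted p under 0.05, and nothing in the labels says that they came from separate cultures, so p-values measure only the spread between these libraries. RNA of the mutated genes was present in the mutants. The level of aly was 74.9 and 72.0 CPM in its own mutant, against 37.1 and 37.3 in bam, 205.7 and 209.1 at 48h and 87.3 and 85.0 at 72h, and so does not check the label. The gene bam had 93.4 and 95.5 CPM in its mutant, 99.7 and 100.7 in aly, 32.9 and 32.5 at 48h and 12.2 and 10.7 at 72h. In bulk testes, fewer cells of a type and less RNA per cell cannot be told apart.

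The members together took 0.0307% of the counts in each bam library. They took 1.04% and 1.03% at 48h and 3.43% and 3.38% at 72h. In the aly libraries they took 0.0052% and 0.00537%. The median member had 0.278 and 0.292 CPM in bam. At 48h the median was 29.3 and 28.6 CPM, at 72h 102.5 and 100.6, and in aly 0.15 and 0.178. No member was at 0 in any 48h or 72h library, while 33 and 23 had no count in the bam libraries and 39 and 28 had none in aly. The 72h and aly levels chose the genes, so their height at 72h and their depth in aly are a description and no test is given for them. The bam and 48h levels were not used in the choice, but they are not independent of it. Of 5756 genes with 20 CPM or more in bam, 5 were under 0.5 CPM in aly. A gene chosen for less than 0.5 CPM in aly was thus seldom high in bam.

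**Figure D1:**
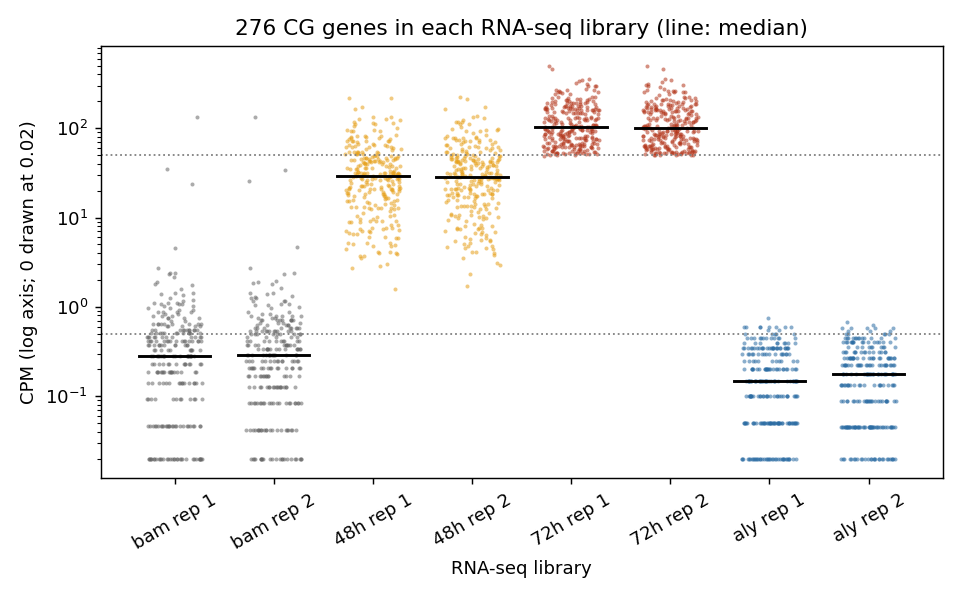
CPM of the 276 genes in each of the 8 RNA-seq libraries on a log axis, with the black line at the median and dotted lines at the thresholds of 50 and 0.5 CPM. The genes lie low in bam apart from a few points, spread widely at 48h, lie at about 50 CPM or above at 72h and lie below 1 CPM in aly.

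The edge of the choice was gradual. CG4955 and CG30270 were just inside the 72h threshold with means of 50.7 CPM each, and CG30432 and CG6497 just outside it with 49.98 and 49.64 CPM. CG4983 and CG30184 were just inside the aly threshold with means of 0.4995 and 0.4969 CPM, and CG42703 and CG14926 just outside it with 0.502 and 0.509 CPM. CG14926, at 325.8 CPM in 72h, was left out by less than 0.01 CPM in aly.

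Nearly every member had more RNA in testes 48 h after the shock than in bam testes. Of the 276 genes, 275 rose from bam to 48h and 1, CG11893, fell, by edgeR's quasi-likelihood test on all 8 libraries at a Benjamini-Hochberg adjusted p under 0.05. All 275 had risen by 2-fold or more. Among all 13495 genes tested, 44.1% were called higher, 30.2% higher by 2-fold or more and 41.8% lower. The members' median log2 change was 6.32, with quartiles at 5.3 and 7.67, and the median of all genes was 0.06. In 275 members the lower 48h library lay above the higher bam library. All 276 passed the filter on low counts, which they could do through the 72h libraries. Since genes under 0.5 CPM in aly were seldom high in bam, the number called higher follows in part from the choice.

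Because bam counts were often close to 0, ratios of CPM were also taken. For the 223 members with more than 3 counts over the bam libraries, the ratio of 48h to bam ran from 0.71 to 1113 with a median of 76.3. A further 16 members had no count in either bam library, and for them 48h was higher by at least 25.1-fold to at least 938-fold, against a floor of 3 counts over the group. With those 16 at their bounds the median log2 ratio of CPM over all members was 6.55. Another 37 had 1 to 3 counts over the bam group.

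**Figure D2:**
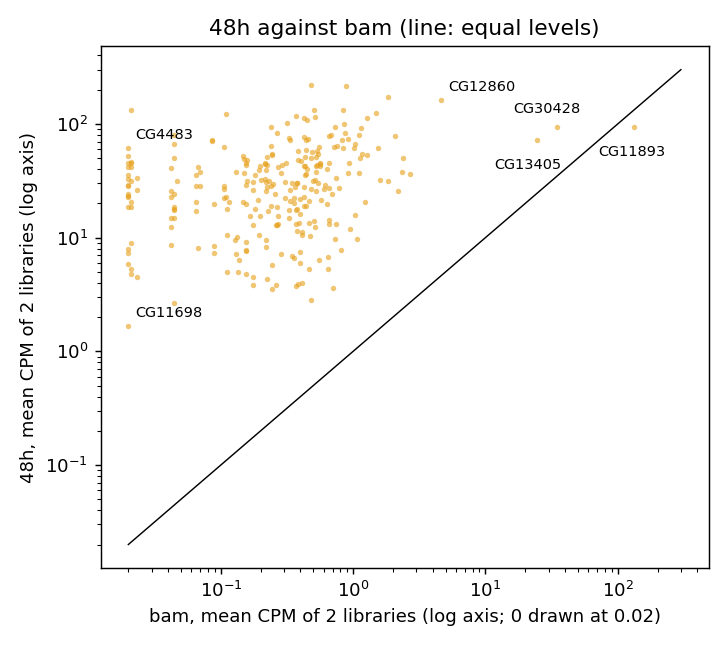
Mean CPM of each of the 276 genes in bam (horizontal) and at 48h (vertical), both on log axes, with the diagonal at equal levels. All points but CG11893 lie above the diagonal, and CG30428, CG13405 and CG11893 stand apart to the right at more than 20 CPM in bam.

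Genes with names that met the same thresholds behaved alike on this contrast. There were 95 of them, of which 93 rose from bam to 48h and 2 fell, with a median log2 change of 6.49. Of the 1099 CG genes that were as abundant at 72h but kept RNA in aly, 930 were higher and 147 lower, with a median of 2.19. These sets were chosen by level at 72h and in aly, as the members were, and no test of the sets against each other was made.

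The genes highest at 72h by CPM rose in this way. CPM counts reads and does not correct for gene length. CG12860 (2R:14665641-14666817, dm6) had 4.55 and 4.71 CPM in bam. At 48h it had 162.4 and 163.8 CPM, at 72h 503.3 and 495.6, and in aly 0.15 and 0.446. Its bam level was the fourth highest among the members, and the log2 change from bam to 48h was 4.95 ± 0.05 (SE; edgeR adjusted p = 3.69e-36). CG5043 (2L:17433862-17435800) had 0 and 1 count in the bam libraries, 133.4 and 133.7 CPM at 48h, 460.2 and 456.7 at 72h, with 0.598 and 0.356 in aly. Its 48h libraries lay far above both bam libraries (edgeR adjusted p = 7.86e-37), and with 1 count over the bam group no fold is given.

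CG30376 (2R:8263486-8264426) had 1.81 and 1.83 CPM in bam, 171.6 and 174.2 at 48h, 351.5 and 351.7 at 72h, with 0.249 and 0.223 in aly. CG4691 (2L:14760767-14761924) had 0.232 and 0.25 CPM in bam, 93.6 and 95.4 at 48h, 352.6 and 350.4 at 72h, with 0.349 and 0.312 in aly. The log2 changes from bam to 48h were 6.38 ± 0.06 for CG30376 and 8.40 ± 0.10 for CG4691 (SE; edgeR adjusted p = 6.76e-38 and 1.84e-35), and the libraries of the groups did not overlap. The 4 next were CG3199, CG43638, CG12229 and CG30324, with mean 72h levels of 332.8, 313.4, 311.0 and 298.8 CPM and mean 48h levels of 39.99, 36.7, 61.9 and 73.4 CPM. CG43638 lies over rols, CG12229 over CG32176 and CG30324 over CG30099, which stood at 10.4, 47.4 and 40.0 CPM at 72h. CG30099 had 0.155 CPM in bam, 11.3 at 48h and 0.256 in aly, and so was also low in bam and aly. The strand setting of the counts is not stated, so reads of overlapping genes may be shared. In aly CG32176 stood at 349.1 CPM where CG12229 had 0.41, and rols at 14.4 CPM where CG43638 had 0.117. Sharing of reads was not tested.

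Per kilobase of annotated gene span, introns included, the order was different. CG34160 led with 516.6 CPM per kilobase over a span of 572 bases, followed by CG30324 with 461.2 and CG12860 with 424.4. In all, 122 members overlapped another annotated gene and 154 did not. Among those 154, 153 were called higher at 48h than in bam, with a median log2 change of 6.67.

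A few members had RNA in bam testes and next to none in aly. The cells that held this RNA were not determined. CG11893 (3R:25289889-25291366) had 132.2 and 134.7 CPM in bam. At 48h it had 93.2 and 95.5 CPM, at 72h 79.2 and 76.8, and in aly 0.299 and 0.446. Its level was highest in bam, and it fell by 0.69 ± 0.03 on the log2 scale from bam to 48h (SE; edgeR adjusted p = 3.81e-19). CG30428 had 35.1 and 34.0 CPM in bam, 93.8 and 92.7 at 48h, 74.9 and 76.4 at 72h, with 0.05 and 0.089 in aly. CG13405 had 23.6 and 25.7 CPM in bam, 72.0 and 72.4 at 48h, 179.2 and 176.5 at 72h, with 0.15 and 0.045 in aly.

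The rises of CG30428 and CG13405 from bam to 48h were 1.25 ± 0.04 and 1.36 ± 0.05 on the log2 scale (SE; edgeR adjusted p = 6.11e-23 and 1.47e-22), the smallest among the members called higher. The other 273 members had less than 5 CPM in bam, and 250 of them had less than 1 CPM. Over the whole table, 5756 genes had a mean of 20 CPM or more in bam, and 5 of these were under 0.5 CPM in aly: these 3 members and 2 named genes, the larval serum protein gene Lsp1gamma at 82.6 CPM in bam and 0.075 in aly and the heat shock gene Hsp70Bc at 25.5 and 0.338 CPM. That count was made after the levels were seen.

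The members differed widely in how much of their 72h level was present at 48h. The median was 26.1% of the 72h CPM, with quartiles at 15.2% and 39.5%, and the range ran from 2.58% to 178%. At 48h 33 members were under 10% of their 72h level, 207 lay from 10% up to 50% and 36 were at 50% or above. The 95 named genes of the same thresholds had a median of 23.3%, the 1099 CG genes with RNA in aly 76.6% and all 4022 genes at 50 CPM or more at 72h 103.1%. Members at 50% or above made up 13.0%, against 67.6% of the 1099 CG genes and 76.5% of the 4022.

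**Figure D3:**
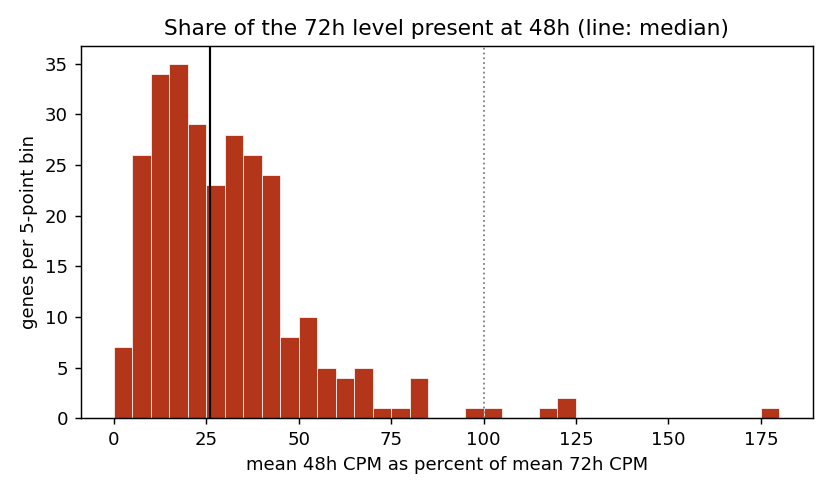
Number of the 276 genes by mean 48h CPM as a percent of mean 72h CPM, in bins of 5 points, with the black line at the median of 26.1% and a dotted line at equal levels. Most genes lie below 50% and 5 lie above 100%.

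At the late end of this range was CG11698, with no count in bam, 1.58 and 1.73 CPM at 48h, 64.3 and 63.9 CPM at 72h, and 0.349 and 0.267 CPM in aly. It was 38.7-fold higher at 72h than at 48h by CPM, and at least 25.1-fold higher at 48h than in bam. CG43321 had 3.01 and 2.31 CPM at 48h and 81.8 and 81.4 at 72h. CG12035 had 4.83 and 5.14 CPM at 48h and 123.8 and 119.8 at 72h, and neither it nor CG43321 had a count in aly. CG14354 had 6.03 and 5.66 CPM at 48h and 124.7 and 124.8 at 72h. All 4 were nonetheless called higher at 48h than in bam, with edgeR adjusted p-values of 9.74e-12 or below. CG12035 lies over drpr, which stood at 31.9 CPM at 72h and 60.9 CPM in aly.

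At the early end CG15143 had 118.2 and 117.0 CPM at 48h and 66.7 and 65.5 at 72h, against 0.278 and 0.458 in bam and 0.349 and 0.446 for aly. It overlaps the dynein heavy chain gene Dhc36C, which went the other way, with means of 37.7 CPM at 48h and 122.9 at 72h. Dhc36C had a mean of 101.3 CPM in aly. CG4483 had no count in bam, 62.3 and 61.3 CPM at 48h, 50.8 and 54.7 at 72h, with 0.498 and 0.446 in aly. It was at least 938-fold higher at 48h than in bam. CG30428 and CG11893, described above, completed the 4 with the highest 48h share, and CG11635 was the only other member with a higher mean CPM at 48h than at 72h.

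From 48h to 72h the fit called 272 members higher and 1 lower, and 3 did not pass the threshold, beside 45.9% of all genes higher and 34.3% lower. The 72h level was part of the choice, so nothing is read from this count. TMM scaling in the fit raised 72h against 48h relative to library totals: CG15143 was lower at 72h on both scales, with a log2 change of -0.50 ± 0.04 (SE), while CG11893, CG30428 and CG4483, lower at 72h by CPM, had log2 changes of 0.05, 0.03 and 0.10 after TMM scaling, and CG11635 was higher at 72h by 0.28. From 72h to aly all 276 were called lower, beside 45.9% of all genes. From bam to 72h 275 were called higher, beside 46.1%, and CG11893 lower, beside 43.6%.

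The 2 groups in which the members were low were not equally low. By mean CPM 194 members were higher in bam than in aly, 80 higher in aly and 2 equal. In the fit, 125 were called lower in aly than in bam and 39 higher, beside 40.5% and 41.7% of all genes. Because aly under 0.5 CPM was part of the choice, this is a description. For the 189 members with more than 3 counts over the aly libraries, 72h was 112-fold to 2686-fold higher than aly, with a median of 509.9-fold. For the 15 members with no count in aly the bound was at least 728-fold to at least 2693-fold.

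Open chromatin at these genes was found at 72h and, for a part of them, at 48h. A gene was counted when a deposited ATAC-seq peak overlapped by 1 bp or more the 100 bp either side of an annotated gene end, and both ends were used because the annotation at hand gives no strand. In the 72h list 241 of the 276 members, 87.3% (95% Wilson interval over genes 82.9% to 90.7%), had such a peak. So did 64.8% of all 17190 genes with a position and 92.9% of the 1099 CG genes with RNA in aly. Of the 94 named genes of the same thresholds that had a position, 81.9% did. In the 48h list 141 members did, 51.1% (45.2% to 56.9%), beside 61.5% of all genes. The bam and ctrl48h lists each had 25, 9.06% (6.21% to 13.0%), beside 51.9% and 53.1% of all genes. The aly list had 27, 9.78% (6.81% to 13.9%), beside 54.7%, and the topi list 36, 13.0% (9.57% to 17.5%), beside 54.8%. There was 1 list per condition, so the spread between samples is unknown and no test of conditions was made. Conditions had unlike numbers of libraries: 2 each for bam and ctrl48h, 3 each for 48h and 72h, 6 for aly and 4 for topi. The lists also differed in size, with 29559 peaks in aly, 38078 in topi, 36412 at 48h and 35547 at 72h. Shares were not adjusted for either. The intervals cover counting over genes only.

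**Figure D4:**
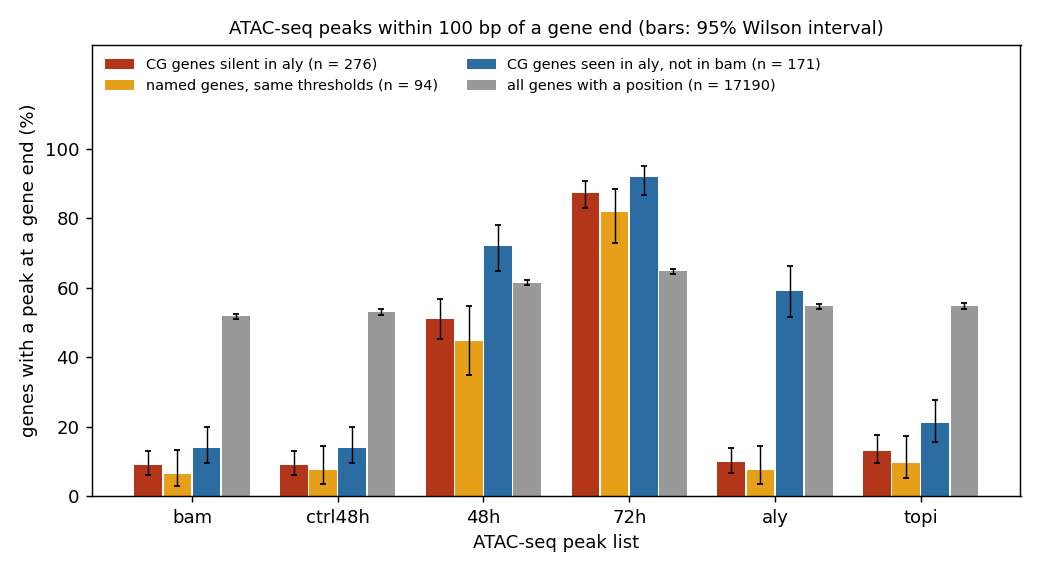
Percent of genes with an ATAC-seq peak within 100 bp of an annotated gene end in each of 6 peak lists, for 4 gene sets, with 95% Wilson intervals over genes. The 276 genes rise from 9.06% in bam to 51.1% at 48h and 87.3% at 72h and stand at 9.78% in aly, where the 171 CG genes with 5 CPM or more in aly and under 1 in bam stand at 59.1%.

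The heat-shocked control list matched the unshocked bam list in number, and 22 genes were in both. Most members with a 72h peak had none in the bam, aly and topi lists. For 202 members, 73.2%, a peak stood in the 72h list and in none of bam, aly and topi, beside 9.03% of all genes. The same pattern was found for 71.3% of the 94 named genes of the same thresholds. It was found for 22.4% of the 1099 CG genes with RNA in aly, of which 54.6% had a bam peak. Of the 171 CG genes with 5 CPM or more in aly and under 1 in bam, 32.7% showed it. Of the 217 members with a 72h peak and no bam peak, 114 also had a 48h peak, 52.5%, beside 62.0% of the 2485 genes of the whole table with a 72h peak and none in bam. A topi peak was present for 12, 5.53%, beside 20.5%, and an aly peak for 8, 3.69%, beside 30.8%. A peak in all 6 lists was found for 17 members, 6.16%, beside 46.6% of all genes. No list had a peak for 31 members, 11.2%, beside 29.1% of all genes. A 72h peak without a bam peak was found for 14.5% of all genes.

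RNA in aly and open chromatin in aly went together between sets of CG genes. A comparison set, defined after the data were seen, held the 171 CG genes with 50 CPM or more at 72h, 5 CPM or more in aly and under 1 CPM in bam. Like the members they had few bam peaks, 14.0%, and many 72h peaks, 91.8%. In the aly list 59.1% (51.6% to 66.2%) of them had a peak, against 9.78% of the members. In the topi list the shares were 21.1% (15.6% to 27.8%) and 13.0%. The 94 placed named genes of the members' thresholds had 7.45% in aly and 9.57% in topi. The sets were split on RNA in aly, which the peak lists did not enter.

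Neighbouring genes can lend a peak to a gene end. Restricted to the 90 members with no other gene within 500 bp, the shares were 82.2% at 72h, 47.8% at 48h, 6.67% in bam, 7.78% in aly and 13.3% in topi. When the peak summit itself had to lie within 100 bp of a gene end, 232 members remained at 72h and 126 at 48h, against 8 in bam, 11 in ctrl48h, 11 in aly and 14 in topi. By the summit rule the members' share was 84.1% at 72h, beside 49.3% of all genes, and 45.7% at 48h, beside 45.2%. It was 3.99% in aly, beside 40.4%, and 5.07% in topi, beside 41.4%.

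The 72h summits lay close to the annotated ends. The median distance to the nearer end was 27.0 bases, and 194 of 241 summits were within 50 bases. 124 summits lay outside the gene, 114 inside and 3 on the end base. Since a peak had to come within 100 bp of an end to be counted, only the shape within that window is informative. For 184 members 1 end carried a 72h peak and for 57 both did.

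**Figure D5:**
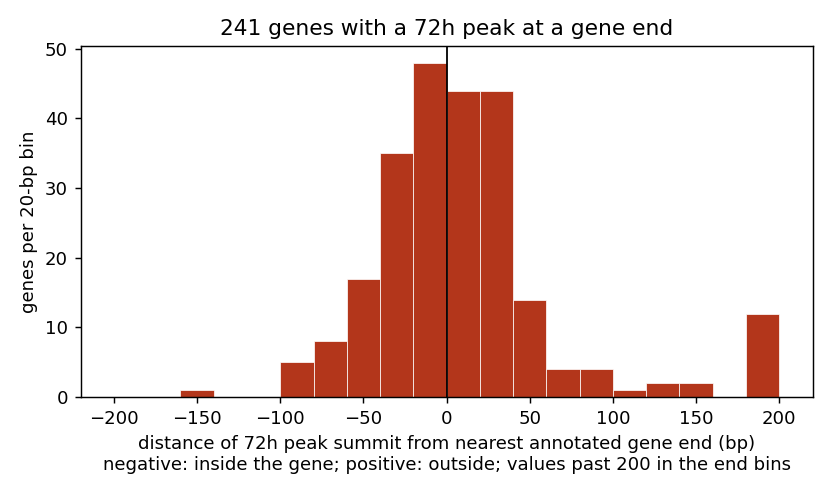
Distance of the 72h peak summit from the nearest annotated gene end for 241 genes, in bins of 20 bp, with negative values inside the gene and values past 200 bp in the last bins. The summits centre on the gene end, with a median 2.0 bases outside it.

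Peak height was greater at 72h than at 48h for most members with overlapping peaks in both lists. The authors' fold enrichment at the summit had a median of 3.97 for members with a 72h peak and 2.87 for those with a 48h peak. Both lists had a peak for 138 members. For 122 of them the highest 48h and 72h peaks overlapped each other. Of these, 116, 95.1%, were higher at 72h, against 61.0% of the 9814 genes of the whole table with overlapping peaks. The rise was not particular to the members. It was found for 94.6% of 37 named genes of the same thresholds with overlapping peaks. It was also found for 88.9% of 117 such CG genes from the comparison set with RNA in aly and little in bam. For the other members with a peak in both lists the highest peaks lay apart and are not compared. Values from separately called lists carry no common error, and no test was made.

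Peaks and RNA can be set side by side at the single times. Members with a 48h peak had a median of 36.2 CPM at 48h, and the 135 without had 22.3 CPM. Their 48h levels were at a median of 31.95% and 22.38% of the 72h level. With the members ranked by 72h level and split into 3 sets of 92, a 72h peak was present for 72 members of the lowest set, 82 of the middle and 87 of the highest. In bam the 25 members with a peak had a median of 0.422 CPM and the 251 without had 0.283 CPM. These are descriptions over genes, which are not replicates.

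Among the 6 most abundant members with a 72h peak and none in bam, aly or topi were CG5043, CG30376, CG4691, CG43638 and CG30324, which had 48h peaks as well. At overlapping peaks fold enrichment went from 2.43 at 48h to 4.03 at 72h for CG5043, from 4.58 to 6.43 for CG4691 and from 2.38 to 4.11 for CG30324. For CG30376 and CG43638 the highest peaks lay at opposite gene ends. CG30376 had 3.83 at its lower end at 48h and 4.93 at its upper end at 72h, and CG43638 had 2.00 and 4.04 in the same order. The 72h summit of CG43638 lay 341 bases outside the gene, so by the summit rule this peak would not count. The sixth, CG3199, had no 48h peak and a value of 3.38 at 72h. Its RNA was at 12.0% of the 72h level at 48h. CG12860 had overlapping peaks at 48h (5.29) and 72h (6.23) with summits at its upper end, and an aly peak (2.74) with its summit 274 bases beyond the lower end.

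The members with a peak in all 6 lists included CG10510, CG10177, CG30278 and CG42820, the most abundant of the 17. A gene in all 6 lists need not have 1 peak in common: of the 26 members with a peak at 72h and in aly, the highest peaks overlapped for 16. CG10177 had a fold enrichment of 3.70 in bam, 5.97 in aly and 4.38 in topi at peaks before its lower end, with summits 604, 619 and 331 bases away, while its highest 72h peak, at 6.03, lay at the upper end. Its RNA stood at 0.51 and 0.333 CPM in bam, 42.6 and 43.3 at 48h, 210.9 and 207.3 at 72h, with 0.15 and 0.089 in aly. For CG42820 the fold enrichment was 5.80 in bam and 4.89 in aly at its lower end, and 5.34 at 72h at its upper end, and its RNA was at 0.557 and 0.333 CPM in bam and 0.1 and 0.267 CPM in aly, against 190.4 and 188.1 at 72h. At these genes a called peak in aly near a gene end and RNA under 0.5 CPM stood together. CG11698, the member with the lowest 48h share, was another of the 17, with fold enrichments between 3.13 and 5.10.

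CG11893 had peaks in the 48h, 72h and topi lists, with fold enrichments of 3.05, 2.15 and 3.92, and none in bam, where its RNA was highest. CG13405 had peaks in every list but aly, from 4.16 in topi to 5.42 in ctrl48h. CG30428 and CG15143 had no peak at a gene end in any list. Of the 31 members without any peak, CG31806, CG2528 and CG14316 were the most abundant, with 269.97 and 265.6 CPM, 261.2 and 258.7 CPM and 177.7 and 169.3 CPM at 72h.

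Some CG genes carry a further name among the synonyms in the RefSeq gene table, which says what their proteins resemble. These were picked from the table after the values were seen. CG10845, listed as Klp96B and KIF26A/B, kinesin motor names, had 1.07 and 1.00 CPM in bam, 15.3 and 16.6 at 48h, 241.9 and 238.7 at 72h, with 0.1 and 0.045 in aly. CG8476, listed as Dnajb4, a name for a DnaJ-type co-chaperone, had 18.5 and 20.9 CPM at 48h and 213.8 and 209.3 at 72h. CG17237, listed as ELC4, had 81.1 and 78.6 CPM at 48h and 186.0 and 176.6 at 72h. CG10845 was low at 48h, while CG17237 was already high.

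CG12147, listed with casein kinase I alpha names, had 4.44 and 4.55 CPM at 48h and 64.6 and 62.5 at 72h. CG3473, listed as Ube2N, a ubiquitin-conjugating enzyme name, had 20.6 and 18.6 CPM at 48h and 64.1 and 62.7 at 72h. CG30048, listed as Pkd1, a polycystin name, had 72.5 and 70.9 CPM at 48h and 133.7 and 130.3 at 72h. CG32006, listed as FoxJ1, a name of forkhead transcription factors that drive cilium genes in vertebrates, had 20.6 and 20.4 CPM at 48h, 56.9 and 55.5 at 72h, with 0.498 and 0.446 in aly. Of these 7 genes, CG32006 alone had no 72h peak at a gene end.

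The members were small genes, spread over the arms. Their median annotated span was 1146 bp, against 1996 bp for the 1099 CG genes with RNA in aly and 2144 bp for all 13645 protein-coding genes. The 94 placed named genes of the same thresholds were alike, with a median of 1197 bp. A lone RefSeq transcript was annotated for 207 of the 276 members and 69 of those 94 named genes, against 49.6% of all coding genes. Chromosome arm 2L held 88 members, 31.9%, against 19.1% of coding genes. It held 28.7% of those named genes and 26.3% of the 171 CG genes that had RNA in aly but little in bam. On the X lay 4.26% of those named genes. The X chromosome held 22, 7.97%, against 15.6% of coding genes, 12.7% of coding genes with 50 CPM or more at 72h and 25.1% of the 171 CG genes that had RNA in aly but little in bam. No test of these shares was made.

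The 22 members on the X had a median of 73.6 CPM at 72h and the 254 others 104.9 CPM. Their 48h levels were at medians of 37.7% and 24.7% of the 72h level. None of the 22 had a peak at a gene end in bam, ctrl48h, aly or topi, while 17 had one at 72h and 9 at 48h. Of the 254 others, 25 had a peak in bam, 25 in ctrl48h, 27 in aly and 36 in topi, with 224 at 72h and 132 at 48h. The shares of the others were 9.84% in bam and ctrl48h, 10.6% in aly and 14.2% in topi. At such shares few of 22 genes would have a peak, and a difference between the X and the other arms was not tested. CG15296, the most abundant on the X by CPM, had 0.464 and 0.542 CPM in bam, 133.5 and 130.5 at 48h, 224.8 and 222.5 at 72h, with 0.199 and 0.134 in aly.

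Members lay next to each other in 13 runs with 29 genes, 3 of them with 3 genes and 10 with 2. The runs of 3 were all on 2L. CG12307, CG4983 and CG43167 lie within 2L:11651331-11657992 and had mean 72h levels of 77.5, 200.1 and 58.2 CPM and mean 48h levels of 13.3, 125.0 and 24.2 CPM. All 3 had peaks at 48h and 72h and in no other list. CG12448, CG18063 and CG10839 had mean 72h levels of 161.6, 102.3 and 60.0 CPM, with 48h shares of 12.2%, 32.9% and 40.2%.

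In the run of CG11634, CG2528 and CG31693 the mean 72h levels were 60.6, 260.0 and 71.3 CPM and the 48h shares 8.71%, 35.4% and 5.54%. Neighbours in that run differed in how much was present at 48h. The pair CG12126 and CG30376, with 102.1 and 351.6 CPM at 72h, lies side by side on 2R. Their 48h value of 3.83 comes from 1 peak that both genes share.

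Regulators and known targets of the spermatocyte programme were measured in the same libraries. Of the 8 tMAC genes with achi and vis, 7 rose from bam to 48h and 1 fell, beside 44.1% and 41.8% of all genes. topi, a zinc finger subunit, had means of 3.71 CPM in bam, 178.6 at 48h, 147.7 at 72h, with 1188 in aly. vis, a homeodomain gene, had 10.0, 215.4, 163.9 and 283.7 CPM. The 5 testis TAFs, paralogs of general transcription factor subunits, were all higher at 48h. can had means of 0.531, 194.2, 86.1 and 496.8 CPM, and sa 0, 196.4, 136.2 and 595.4 CPM. In aly, 7 of the 8 and 4 of the 5 were higher than at 72h, beside 42.2% of all genes.

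Named spermatid differentiation genes mostly rose from bam to 48h, as the members did. Of 25 genes, 24 rose and 1 fell, beside 44.1% and 41.8% of all genes. In aly 24 were lower than at 72h, beside 45.9% of all genes. Only 1 of the 25, gdl, was under 0.5 CPM in aly, and it had 4.50 CPM at 72h. The members were chosen to be under 0.5 CPM in aly and these 25 were not, so depth of loss is not compared. The leucyl aminopeptidase genes S-Lap1 and S-Lap7 had 3163 and 3177 CPM at 72h, and 1296 and 75.5 CPM in aly. The summed level of the 25 was 20523 and 20412 CPM at 72h and 3657 and 3649 CPM in aly.

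Markers of another male tissue moved with the members. The list held 11 accessory gland genes, and all 11 rose from bam to 48h, were higher again at 72h and lower in aly than at 72h. Their summed level was 96.1 and 91.2 CPM in bam, 682.5 and 674.2 at 48h, 2233 and 2183 at 72h, with 101.9 and 99.3 in aly, and 5 of the 11 were under 0.5 CPM in aly. None was at 0 in all libraries, and none is a member. Acp36DE, a seminal fluid protein gene, had 67.9 CPM in bam, 507.5 at 48h, 1167 at 72h, with 83.6 in aly. The part of accessory gland RNA in the members' levels was not tested.

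The sums of the other marker lists did not share that course, though single genes departed from the sum of their list. Summed hub and cyst cell markers were 392.8 and 389.6 CPM in bam, 252.9 and 247.8 at 48h, 158.6 and 164.6 at 72h, with 188.4 and 185.0 in aly. Sheath muscle markers were 2115 and 2104 CPM in bam and 1209 to 1243 CPM in the other libraries. Fat body and hemocyte markers fell from 2181 and 2219 CPM in bam to 593 CPM in each 72h library and 505.1 and 492.5 in aly. Spermatogonial markers went from 2305 and 2304 CPM in bam to 1313 and 1288 at 48h and 788.6 and 789.0 at 72h. In aly their sums were 750 and 738 CPM. Df31 alone had a mean of 1214 CPM in bam. Of the 7 markers, 5 were called lower at 48h than in bam, 1 was not called and 1 was higher. The mean of chinmo rose from 224.0 CPM in bam to 584.3 at 48h. Spermatocyte markers were 54.3 and 54.8 CPM in bam, 3228 and 3173 at 48h and 2041 and 2017 at 72h. In aly they stood at 6679 and 6625 CPM.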

How the data were processed

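RNA-seq counts per gene identifier were deposited by the authors as raw counts, without normalization. The submitters' processing notes name STAR 2.5.1b and 2.5.4b, MACS2 2.1.1, BWA 0.7.10, Trim Galore 0.4.1 and build dm6, without saying which step used which. The library kit was stranded, per the labels' protocols. Neither the counting tool nor its strand setting is stated. Each deposited peak list holds the authors' summit fold ratio and, per peak, a -log10 q value; nucleosome maps, also deposited, hold an occupancy fraction with read counts. There is 1 list per condition, and how libraries were pooled is not stated.

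Members were set by CPM from library totals. The members and all gene lists were chosen with earlier results of these data known. Of 17559 identifiers, 306 had no symbol; these held 2.43% to 4.08% of the counts per library and stayed in totals and fits. edgeR 4.0.16 in R 4.3.3 (filterByExpr by group, TMM, quasi-likelihood F test) was fitted on all 8 libraries and 13495 genes, with Benjamini-Hochberg adjustment over all of them. The fit's biological coefficient of variation was 2.11%. Only 48h against bam was read as a test, since 72h and aly levels set the rule. Its outcome is not independent of the rule, because genes under 0.5 CPM in aly were seldom high in bam. On data simulated for that comparison over 10564 genes, edgeR recovered 94% of 1.5-fold and 100% of 2-fold changes. These rates were not split by level in bam, where 250 members had less than 1 CPM. Recovery for genes that low in bam was not tested separately, so the rates are not given for the members. Named genes were those of a rule by rank (72h level, bam level, 48h share, peak pattern, thresholds, neighbouring runs, smallest p in each list); others are said to be chosen after their values were seen. Gene ends came from RefSeq, assembly Release 6 (dm6), which gave no strand, so both ends were used. Intervals are 95% Wilson intervals and, like the floor of 3 counts, cover counting error only. CAGE libraries were not analysed here, because their clusters carry numbers without positions. No genome or sequence table was at hand, so no sequences are shown. Alternatives were other scalings, DESeq2 1.42.0, no filter, fewer libraries, other windows and thresholds.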

Additional observations from a re-analysis of the deposited data

How the results depend on the processing

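Under every alternative run for 48h against bam (RLE scaling, library size alone, no filter, only the 48h and bam libraries, the DESeq2 Wald test and a fit with the replicate number as a block), 275 members were called higher and 1 lower, and no named member changed direction or side of the threshold. Leaving out each bam or 48h library in turn gave 275 to 275 higher and 1 to 1 lower. Library size alone moved the median log2 change of all genes from 0.06 to 0.25 and that of the members from 6.32 to 6.50. With the replicate block 275 were higher and 1 lower; the numbers are not given as a shared day or batch, and same-numbered libraries of 2 groups correlated in their deviations at r = 0.10 to 0.30 over 7575 genes. Membership was 421 at a 72h threshold of 25 CPM and 139 at 100 CPM, 186 and 363 at aly thresholds of 0.25 and 1 CPM, 310 with TMM-scaled CPM, and 274 to 282 without 1 of the 72h or aly libraries.

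The number of members with a peak at a gene end moved by over 1.5 times in the 4 low lists when the window or the summit rule was changed. At 48h and 72h it moved by less. Windows of 250 and 500 bp gave 50 and 77 in bam, 53 and 78 in ctrl48h, 49 and 70 in aly and 72 and 108 in topi. Over all genes these windows gave 58.0% and 63.7% in bam, 58.9% and 64.2% in ctrl48h, 60.0% and 65.0% in aly and 61.8% and 68.6% in topi. Summits inside 100 bp gave 8, 11, 11 and 14. At 72h these 3 settings gave 246, 249 and 232, and at 48h 160, 176 and 126. At -log10 q of 10 or more, 228 remained at 72h and 20 in aly. CAGE alternatives and windows at gene starts alone were not run, for want of cluster positions and strand.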

Other observations

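Nucleosome positions near the members' gene ends were read from the deposited maps, which the comparisons above do not use. A position was listed there for 145 members, 52.5%, at 72h and 119, 43.1%, at 48h. The bam map listed one for 71 members, 25.7%, the aly map for 46, 16.7%, and the topi map for 86, 31.2%. Over all genes the shares were 46.7% at 72h, 48.1% at 48h, 39.9% in bam, 39.5% in aly and 43.6% in topi. In the 30 members with a listed position in both maps, the median occupancy fraction was 0.814 at 72h and 0.902 in aly, and 22 had the lower value at 72h, 73.3%, beside 49.0% of the 4951 genes of the whole table with both. The value at 72h was the lower one in 23 of 46 members against bam, in 29 of 58 against topi and in 34 of 85 against 48h. No test was made, and the 72h and aly maps were 1 of 4 pairs looked at. A median of 13.0 reads stood behind the members' positions at 72h and 6.0 in aly, so single values are imprecise.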
